A study of Mus musculus with 6 samples.

Results

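The genes described here encode histones, the high mobility group (HMG) proteins that bind nucleosomes and DNA, and the proteins of the nuclear lamina. They were chosen by name. Protein-coding rows of the deposited table were taken whose symbol begins with Hist1h, Hist2h, Hist3h, Hist4h, H2af, H3f3, H1f, Hmga, Hmgb or Hmgn, or is Lmna, Lmnb1, Lmnb2 or Lbr. The rule found 24 of 15836 rows, namely 10 HMG genes, 4 lamina genes, 4 histone variant genes, 4 linker histone genes of the histone cluster and 2 rows that carry the older Hist prefix. The table names most histone genes by newer symbols that the rule does not catch, such as H2bc4 for Hist1h2bc and H2az1 for H2afz. A further 35 protein-coding rows have an identifier whose GENCODE M21 symbol meets the same rule, 29 of them cluster histones and 6 of them H2A variants. They are given beside the 24 members and are counted apart from them.

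RNA was sequenced in 6 libraries from cell culture of a mouse line labelled CAF, short for cancer-associated fibroblast, with pancreatic tumour as the tissue. The 3 control libraries (NC) carry a wild-type genotype label and a control treatment label. The 3 MAOA-KO libraries are labelled as knockouts of MAOA, a mitochondrial enzyme that breaks down serotonin, while their description speaks of knockdown; the labels do not say whether the knockout is 1 clone. The study's title concerns serotonylation of a glutamine in the tail of histone H3, and the question here is how the RNA of chromatin and lamina proteins differed between the groups.

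Library totals ran from 18631359 to 26645441 counts, and a count of 3 equals 0.110 to 0.156 CPM, which here means counts scaled to library size with TMM factors. These floors cover counting error only. The labels call the replicates biosamples without saying that they are separate cultures, so p-values measure the spread between these libraries, which may be technical. The row named Maoa had 24.9 ± 0.639 CPM in MAOA-KO against 49.0 ± 0.922 CPM in control (mean ± SD, n = 3 each), but the locus it lists is not that of Maoa in GENCODE M21, so it is no firm check of the labels. All 24 members, the 35 further histone rows and the 127 other genes used below list the locus of their own gene. Fibroblast markers were mixed: mean Col1a1 was 1.60 CPM in control and 0.636 CPM in MAOA-KO, Pdgfra at 1.30 and 0.669 CPM, Dcn at 0.224 and 0.470 CPM, and Lum had no row. Vim lay at 3426 and 1789 CPM and Col3a1 at 120.5 and 128.7 CPM. Of the epithelial markers Krt8 averaged 863.9 CPM in control and 453.1 CPM in MAOA-KO, Krt18 926.8 and 710.2 CPM, Krt19 350.6 and 86.3 CPM and Krt7 13.6 and 1.95 CPM. Muc1 was higher in MAOA-KO, at 1.38 against 0.701 CPM, Cdh1 was not called, and Epcam and Cldn4 stayed under 1 CPM in every library. Of 10 leukocyte markers 8 had no row, Ptprc among them. The other 2 were expressed, Cd68 at 53.0 CPM in control and 46.2 CPM in MAOA-KO and Cd14 at 26.0 and 25.2 CPM. The summed level of the 14 fibroblast markers with a row was 3658 to 3807 CPM in the controls and 2132 to 2202 CPM in MAOA-KO, and nearly all of it was Vim. The other 13 summed to 310.8 to 330.1 CPM in the controls and 359.9 to 379.0 CPM in MAOA-KO, with Fbln2 and Acta2 higher in MAOA-KO (log2 fold changes of 0.31 ± 0.04 and 0.57 ± 0.05). The summed level of the 8 epithelial markers with a row was 2103 to 2232 and 1214 to 1286 CPM. The part of such cells in the results below was not tested.

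Most histone protein is made in S phase from clustered genes without introns, whose mRNAs end in a stem-loop and not in a poly(A) tail. Most histone variants are made throughout the cell cycle from separate genes with polyadenylated mRNAs, though this does not hold for every variant. Some cluster genes also give longer, polyadenylated mRNAs, which are known from cells that have stopped dividing. HMG proteins loosen or bend chromatin, and lamins form the meshwork under the inner nuclear membrane. Dividing cells generally hold more of Hmgb2 and Lmnb1, and loss of both is known from senescent fibroblasts. These are general facts and not results of these libraries.

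The 3′ stem-loop is shown first, because it is the usual end of cluster histone mRNAs and marks how their rows were annotated. Variant rows were not searched for it. It was searched in the annotated transcript of each cluster row as a letter pattern of the histone element. The pattern spans a stem of 6 bases, a loop of 4 and the closing stem, and the search did not check pairing. The 5 bases on either side are added. Capitals mark the paired stem, and the letters are those of the GENCODE M21 transcripts (GRCm38), written 5′ to 3′ with T for U. The 4 shown are the cluster linker histone that rose, a histone H2B gene with a larger rise, the member with the Hist prefix that was tested and the cluster gene that fell most.
H1f2: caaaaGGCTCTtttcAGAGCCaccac
H2bc8: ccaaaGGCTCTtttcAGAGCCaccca
Hist1h4n: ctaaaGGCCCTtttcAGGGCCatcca
H4c9: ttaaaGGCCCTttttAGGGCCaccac
H1f2 and H2bc8 have the same stem and loop, while both H4 genes have another stem. Of the 35 cluster rows, the pattern was found in 29, against 0.0769% of all 141767 annotated transcripts, those of histones included. In 18 of these the annotated transcript runs over 100 bases past the stem-loop, with 840 bases for H1f2, 155 for H2bc8 and 330 for H4c9, and in 11 it ends within 100 bases, as in Hist1h4n with 31. No match says only that these letters are not in the annotated transcript. This was so for H2bc4, whose annotated transcript of 1156 bases is spliced.

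Promoters are shown for the 2 HMG genes with the largest falls and for 2 cluster genes that rose, since the groups moved in different directions. Each stretch of 300 bases runs from 250 before to 50 after the start of the RefSeq gene model (GRCm38.p6). Capitals mark CCAAT, the site of the factor NF-Y, TTTGAA, a form of the cell cycle homology region element, and ATTTGCAT, the octamer known from H2B promoters. Each was searched on both strands, and no matches overlapped in these 4 stretches.
Hmgb2: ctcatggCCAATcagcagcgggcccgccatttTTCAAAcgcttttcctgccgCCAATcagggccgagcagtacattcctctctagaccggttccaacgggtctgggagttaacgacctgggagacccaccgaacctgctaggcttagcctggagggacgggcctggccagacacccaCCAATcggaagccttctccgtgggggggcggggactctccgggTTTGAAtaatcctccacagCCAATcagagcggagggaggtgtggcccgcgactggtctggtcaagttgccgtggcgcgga
Hmgn5: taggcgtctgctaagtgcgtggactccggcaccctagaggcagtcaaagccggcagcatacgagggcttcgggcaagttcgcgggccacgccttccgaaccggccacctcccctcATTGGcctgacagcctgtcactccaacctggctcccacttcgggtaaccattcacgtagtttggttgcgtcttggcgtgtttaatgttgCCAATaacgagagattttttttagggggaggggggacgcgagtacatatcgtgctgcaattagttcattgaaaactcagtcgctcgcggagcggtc
H1f2: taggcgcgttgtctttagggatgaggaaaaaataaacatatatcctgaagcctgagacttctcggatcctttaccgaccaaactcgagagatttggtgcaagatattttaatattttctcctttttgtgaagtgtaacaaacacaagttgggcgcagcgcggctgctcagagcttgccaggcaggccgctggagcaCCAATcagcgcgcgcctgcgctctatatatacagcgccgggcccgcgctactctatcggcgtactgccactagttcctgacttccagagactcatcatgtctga
H2bc8: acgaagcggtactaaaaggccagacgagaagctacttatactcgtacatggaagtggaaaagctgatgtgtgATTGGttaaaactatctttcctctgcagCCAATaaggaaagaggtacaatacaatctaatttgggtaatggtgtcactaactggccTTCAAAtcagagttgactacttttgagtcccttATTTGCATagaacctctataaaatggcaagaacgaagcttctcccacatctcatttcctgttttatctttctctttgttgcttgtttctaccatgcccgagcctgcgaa
The stretch of Hmgb2 lies at chr8:57511593-57511892 on the plus strand and holds 4 CCAAT and 2 TTTGAA matches. That of Hmgn5 lies at chrX:109013331-109013630 on the minus strand and holds 2 CCAAT matches. The stretch of H1f2 lies at chr13:23738557-23738856 on the plus strand with 1 CCAAT match, and that of H2bc8 at chr13:23571150-23571449 on the plus strand with 2 CCAAT matches, 1 TTTGAA match and 1 octamer. Of the 24 members 20 had a promoter in the RefSeq table, with 24 stretches in all. CCAAT was in 62.5% of the members' stretches and in 37.4% of all 32851 promoters, and TTTGAA in 20.8% against 17.9%. Of the 31 stretches of cluster histones 83.9% held CCAAT, 51.6% TTTGAA and 25.8% the octamer, which 1.74% of all promoters held. A match is a description of letters and not a site.

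Lower RNA levels in MAOA-KO were the rule among the tested members, but not among the histone rows under newer symbols. Of the 24 members 22 had enough counts to be tested, and 18 fell, 3 rose and 1 missed the threshold of 0.05 on edgeR's adjusted p. Over all 13243 tested genes 73.9% were called, 36.9% lower and 37.0% higher. The median log2 fold change of the tested members was -0.80, against 0.00 over all tested genes. Of the 15 tested rows under newer symbols 7 rose, 6 fell and 2 were not called, with a median of 0.53. Members and these rows together had a median of -0.26. A fall of at least 1 on the log2 scale was reached by 9 of the 22, where 6.56% of all genes reached it, and a rise of that size by 1, Hist1h4n, where 7.47% did. For 21 of the 22 all libraries of one group lay on one side of the other group, as for 75.1% of all tested genes. The controls lay above MAOA-KO in 18 (37.5% of all genes) and below in 3 (37.7%).

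**Figure D1:**
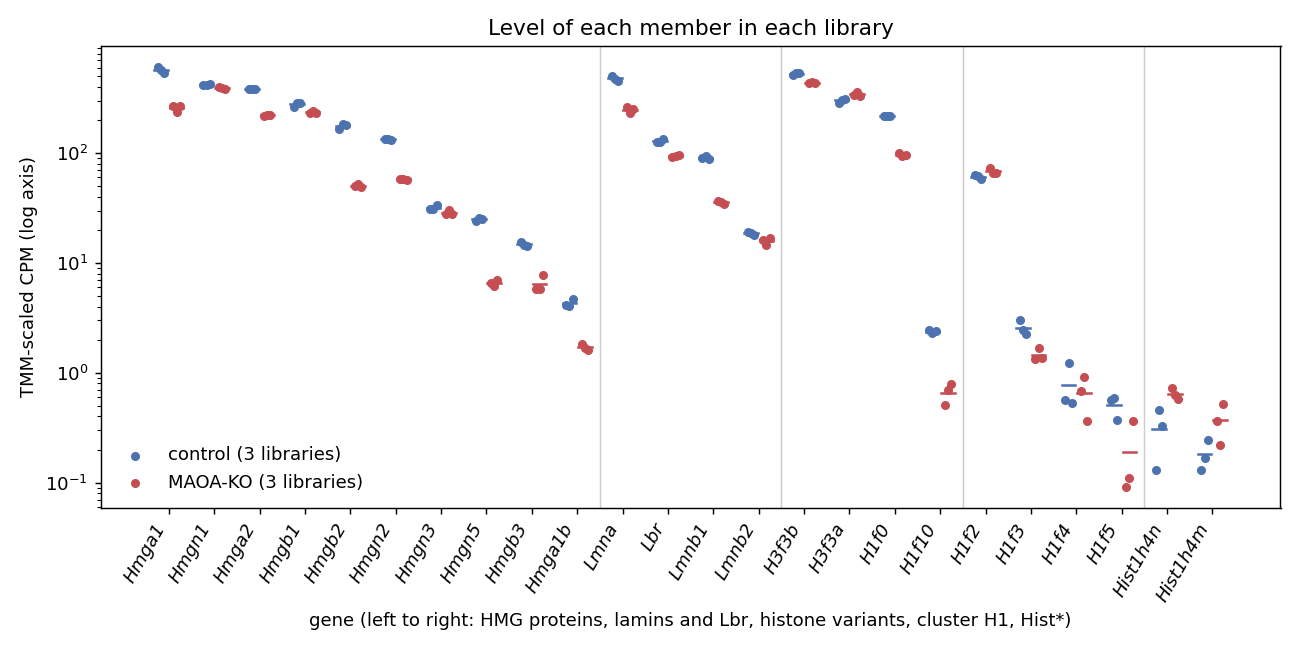
TMM-scaled CPM (log axis) of each of the 24 members in each of the 6 libraries, with points for libraries and short lines for group means. All 10 HMG genes and all 4 lamina genes lie lower in the 3 MAOA-KO libraries, by small gaps for Hmgn1, Hmgn3 and Lmnb2, whereas H3f3a and H1f2 lie higher.

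All 10 HMG genes fell, and their median log2 fold change was -1.18. The size of the fall ran from 1.07-fold in Hmgn1 to 3.83-fold in Hmgn5, and both ends belong to the same subfamily. In bulk RNA, a lower level in each cell and fewer cells with a high level cannot be told apart.

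Hmgb2 encodes a box protein that bends DNA and is abundant in dividing cells. It had 164.6, 182.9 and 181.7 CPM in controls 1 to 3 and 49.6, 52.3 and 49.0 CPM in MAOA-KO 1 to 3. Each MAOA-KO library thus lay far below each control library, at 3.50-fold lower (log2 fold change -1.81 ± 0.05, SE; adjusted p = 3.26e-21, edgeR). Its paralog Hmgb1, which also acts outside the cell as an alarm signal, had 264.8, 283.1 and 288.1 CPM in the controls and 231, 243.5 and 233.3 CPM in MAOA-KO. The groups did not overlap, and the fall was 1.18-fold (-0.24 ± 0.04, adjusted p = 5.78e-06). Hmgb3, found mainly in stem and progenitor cells, had 15.5, 14.5 and 14.4 CPM in the controls and 5.77, 5.78 and 7.77 CPM in MAOA-KO. MAOA-KO replicate 3 was the highest of its group and still below every control, and the fall was 2.33-fold (-1.22 ± 0.10, adjusted p = 1.91e-11).

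Hmgn5, a nucleosome-binding protein that counteracts linker histones, showed the largest fall among the members. Its levels were 23.8, 25.7 and 25.1 CPM in the controls and 6.55, 6.10 and 6.93 CPM in MAOA-KO, 3.83-fold lower (-1.94 ± 0.08, adjusted p = 1.36e-17, edgeR). Hmgn2, another nucleosome-binding protein, had 135.1, 133.7 and 132.7 CPM in the controls and 58.5, 58.4 and 57.0 CPM in MAOA-KO. The replicates lay within a few CPM of each other, and the fall was 2.31-fold (-1.21 ± 0.04, adjusted p = 4.86e-19). The other two members of this subfamily moved little. Hmgn1 had 416.3, 413.6 and 422.1 CPM in the controls and 396.1, 387.8 and 384.1 CPM in MAOA-KO (-0.10 ± 0.03, adjusted p = 0.0116, edgeR). Hmgn3 had 30.9, 30.9 and 33.9 CPM against 27.6, 30.6 and 28.0 CPM (-0.15 ± 0.06, adjusted p = 0.0234). The gap between the groups was under 1 CPM in Hmgn3. Both calls were lost with scaling to library totals only, where the log2 fold changes were -0.01 for Hmgn1 (adjusted p = 0.744) and -0.06 for Hmgn3 (adjusted p = 0.336). Hmgn1 was also lost without MAOA-KO replicate 3 (adjusted p = 0.0704). Hmgn3 was lost without control replicate 3, MAOA-KO replicate 1 or MAOA-KO replicate 3 (adjusted p of 0.137, 0.0748 and 0.0894).

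The AT-hook genes, whose products bind the minor groove of AT-rich DNA and are abundant in embryonic and tumour cells, fell as well. Hmga1 had 608.3, 565.1 and 536.9 CPM in the controls and 268.7, 234.7 and 267.4 CPM in MAOA-KO. The spread within each group was a small part of the gap between them, and the fall was 2.22-fold (-1.15 ± 0.05, adjusted p = 4.21e-17, edgeR). Hmga2 had 379.0, 384.6 and 382.2 CPM in the controls and 218.1, 221.5 and 221.0 CPM in MAOA-KO, a fall of 1.73-fold (-0.79 ± 0.04, adjusted p = 1.45e-16). Hmga1b, an intronless copy of Hmga1 on chromosome 11, had 4.07 to 4.71 CPM in the controls and 1.62 to 1.83 CPM in MAOA-KO. Its log2 fold change was -1.33 ± 0.14, close to that of Hmga1, and reads of the near-identical pair may be shared.

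**Figure D2:**
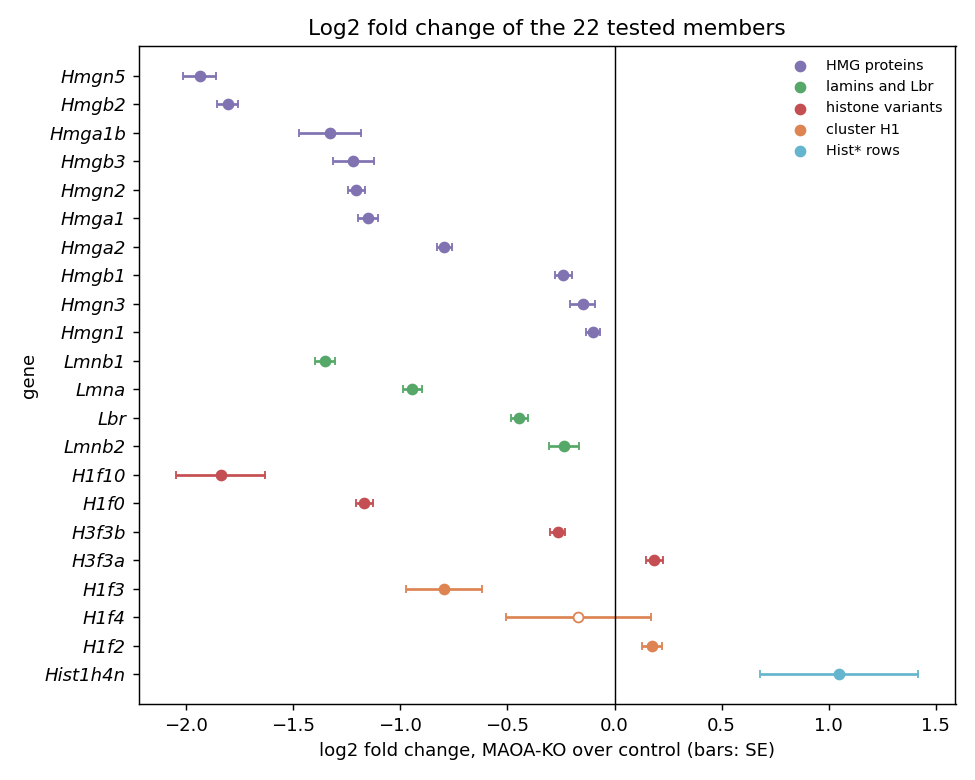
Log2 fold change of MAOA-KO over control with its SE for the 22 tested members, coloured by kind, where an open point marks the gene that was not called. HMG genes span -1.94 to -0.10, lamina genes -1.35 to -0.24, and only H3f3a, H1f2 and Hist1h4n lie above 0.

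The 3 lamin genes and Lbr fell, and the 2 B-type lamins did so to different degrees. Lmnb1 had 90.1, 94.1 and 88.1 CPM in the controls and 36.4, 36.1 and 34.1 CPM in MAOA-KO, 2.55-fold lower (-1.35 ± 0.05, adjusted p = 8.58e-19, edgeR). Lmnb2 had 18.9, 18.9 and 17.9 CPM in the controls and 16.04, 14.62 and 16.89 CPM in MAOA-KO, 1.18-fold lower (-0.24 ± 0.07, adjusted p = 0.00376). With scaling to library totals only, the adjusted p of Lmnb2 was 0.0568. Lmna, which gives lamins A and C, had 507.4, 470.1 and 455.6 CPM in the controls and 262.9, 232.6 and 249.4 CPM in MAOA-KO. Every MAOA-KO library lay well below every control, with a fall of 1.93-fold (-0.94 ± 0.04, adjusted p = 5.30e-16). Lbr, the lamin B receptor, which tethers heterochromatin and also acts as a sterol reductase, had 125.2, 126.2 and 133.4 CPM against 92.8, 94.7 and 95.1 CPM. It was 1.36-fold lower (-0.45 ± 0.04, adjusted p = 2.91e-10).

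Of 22 genes for lamin-associated proteins and lamin processing enzymes 12 fell, 6 rose and 4 were not called. Over all tested genes 36.9% were called lower and 37.0% higher. The median of the 22 genes was -0.16 on the log2 scale. Among them Nrm, an inner nuclear membrane protein, had a log2 fold change of -1.58 ± 0.15, Syne3, a linker to the cytoskeleton, one of -1.03 ± 0.05, and Banf1, which bridges DNA to the lamina, one of -0.95 ± 0.05. The 6 that rose did so by 0.18 to 0.47; the largest rises, named after their values were seen, were in Matr3, a nuclear matrix protein (0.47 ± 0.04), and Tor1aip2, a torsin cofactor (0.39 ± 0.04). Emd, which encodes emerin, fell from 75.7 ± 3.64 to 54.4 ± 1.16 CPM (SD over 3 libraries each; adjusted p = 9.04e-10 in edgeR) and Tmpo, which encodes the lamina-associated polypeptides, from 232.6 ± 4.74 to 172.2 ± 4.53 CPM (adjusted p = 1.18e-10).

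Among the 4 histone variant genes 3 fell and 1 rose. H1f0, a linker histone that accumulates in differentiated cells, had 218.3, 216.9 and 218.1 CPM in the controls and 99.9, 94.0 and 97.0 CPM in MAOA-KO. Its control libraries were nearly equal and lay far above every MAOA-KO library, with a fall of 2.25-fold (-1.17 ± 0.04, adjusted p = 3.72e-19, edgeR). H1f10, another linker variant, had 2.43, 2.31 and 2.38 CPM in the controls and 0.504, 0.694 and 0.782 CPM in MAOA-KO, 3.58-fold lower (-1.84 ± 0.21, adjusted p = 1.74e-08). Its counts were 55 to 58 in the controls and 11 to 19 in MAOA-KO.

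H3f3a and H3f3b encode the same protein, the replacement histone H3.3, and moved in opposite directions. H3f3a had 287.7, 305.8 and 312.8 CPM in the controls and 339.1, 358.0 and 332.5 CPM in MAOA-KO, 1.14-fold higher (0.18 ± 0.04, adjusted p = 0.000175, edgeR). H3f3b had 512.3, 532.3 and 532.9 CPM in the controls and 431.3, 444.8 and 436.9 CPM in MAOA-KO, which was lower (-0.26 ± 0.03, adjusted p = 2.03e-07). Neither pair of groups overlapped. Of the summed FPKM of both genes, H3f3a held 33.2%, 33.7% and 34.2% in the controls and 41.0%, 41.6% and 40.2% in MAOA-KO. The summed level of all 6 H3 rows differed little, at 801, 838.9 and 846.5 CPM in the controls and 772.4, 804.9 and 771.1 CPM in MAOA-KO, with overlapping groups.

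The cluster linker histones did not move as 1 group. H1f2, the most abundant of them, had 62.9, 61.2 and 58.4 CPM in the controls and 73.4, 66.3 and 66.4 CPM in MAOA-KO. MAOA-KO replicate 1 was the highest, all 3 lay above the controls, and the rise was 1.13-fold (0.17 ± 0.05, adjusted p = 0.00220, edgeR). H1f3 had 2.99, 2.47 and 2.25 CPM in the controls and 1.33, 1.68 and 1.36 CPM in MAOA-KO, 1.74-fold lower (-0.80 ± 0.18, adjusted p = 0.000281). H1f4 had 0.564, 1.22 and 0.533 CPM against 0.687, 0.914 and 0.365 CPM, so the groups overlapped (-0.17 ± 0.34, adjusted p = 0.665). Its annotated span overlaps that of H2bc6 on the same strand, so reads of the pair may be shared, and its direction turned without control replicate 2 (0.32) or MAOA-KO replicate 3 (0.08). H1f5 had 9 to 14 counts in the controls and 2 to 7 in MAOA-KO and was not tested.

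The makeup of the linker histone RNA differed between the groups. Per length, H1f0 held 71.4% ± 0.840 of the summed FPKM of the 6 H1 rows in the controls and 51.0% ± 0.728 in MAOA-KO (mean ± SD, n = 3 per group). H1f2 held 26.3% ± 0.684 and 47.6% ± 1.01. The summed H1 level was 287.7, 284.7 and 282.1 CPM in the controls and 175.9, 163.7 and 166.2 CPM in MAOA-KO.

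**Figure D3:**
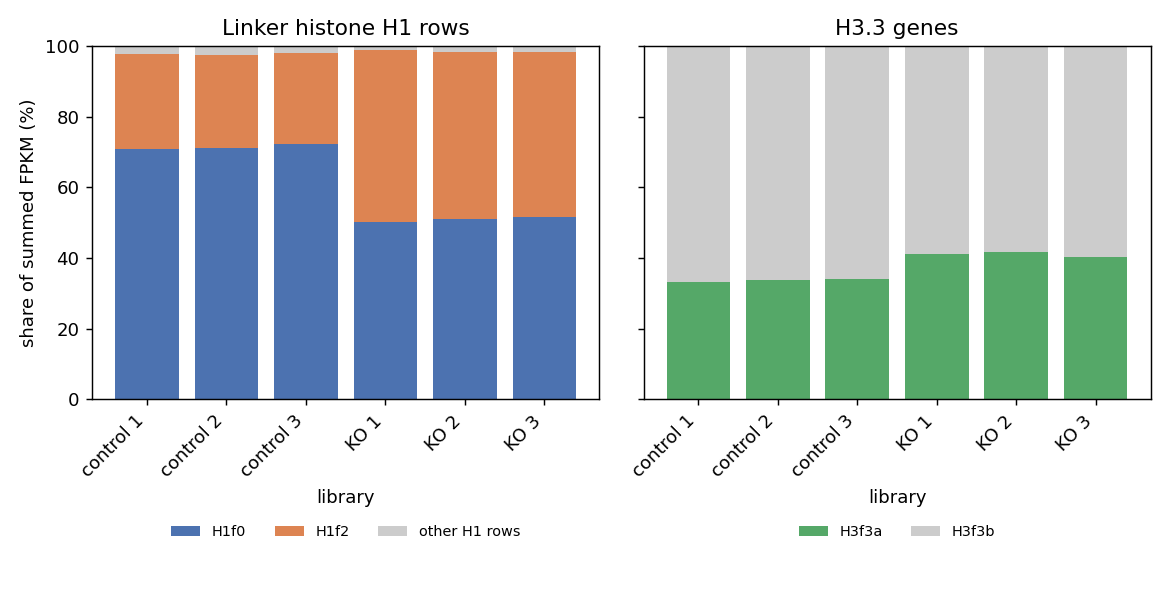
Share (%) of each gene in the summed deposited FPKM of the 6 linker histone rows (left) and of the 2 H3.3 genes (right), as stacked bars for each of the 6 libraries. H1f0 takes 70.8% to 72.4% in the controls and 50.3% to 51.7% in MAOA-KO, and H3f3a goes from at most 34.2% to at least 40.2%.

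Of the 2 rows with the Hist prefix, both for histone H4, Hist1h4n had 3, 11 and 8 counts in the controls and 16, 17 and 11 in MAOA-KO. The count 11 occurs in both groups, while the CPM of the groups did not overlap, and the log2 fold change was 1.05 ± 0.37 (adjusted p = 0.0136, edgeR). The call was lost without control replicate 1 (0.70, adjusted p = 0.102) and in DESeq2 (1.06, adjusted p = 0.0835). Hist1h4m had 3, 4 and 6 counts against 8, 6 and 10 and was not tested. H4 genes are close to identical in their coding part, so that reads may be split among copies.

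The 35 histone rows under newer symbols divide by kind. Of the 6 H2A variant rows 5 were tested, and all 5 fell. H2az1, the main gene of H2A.Z, a variant placed at promoters, had 338.5, 352.9 and 346.4 CPM in the controls and 203.2, 199.1 and 200.2 CPM in MAOA-KO (-0.78 ± 0.04, adjusted p = 3.25e-16, edgeR). H2ax, whose product is phosphorylated at DNA breaks, had 33.9, 30.9 and 30.2 CPM against 14.7, 13.0 and 14.0 CPM (-1.19 ± 0.07, adjusted p = 1.50e-14). H2az2, H2aj and Macroh2a1 had log2 fold changes of -0.57 ± 0.06, -0.45 ± 0.08 and -0.19 ± 0.04. With the 4 member variants, 8 of 9 tested variant rows fell and 1 rose.

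Of the 29 cluster rows under newer symbols 10 were tested: 7 rose, 1 fell and 2 were not called. H2bc4, which makes up most of the H2B RNA, had 30.6, 32.4 and 32.6 CPM in the controls and 68.2, 62.5 and 66.2 CPM in MAOA-KO. Every MAOA-KO library lay far above every control, with a rise of 2.05-fold (1.04 ± 0.05, adjusted p = 7.32e-16, edgeR). Its neighbour H2ac6, which is transcribed away from it on the other strand of chromosome 13, had 0.304, 0.713 and 0.697 CPM against 1.60, 1.72 and 1.67 CPM (1.53 ± 0.25, adjusted p = 6.87e-06). H2bc8 had 1.04, 1.22 and 1.31 CPM in the controls and 3.99, 4.46 and 4.48 CPM in MAOA-KO, 3.61-fold higher (1.85 ± 0.16, adjusted p = 7.68e-11). The other rises were in H2bc6, H2aw, H3c15 and H3c4, with log2 fold changes of 0.71 to 1.92 and control means of 0.268 to 1.17 CPM. H2bc21 (0.06 ± 0.11) and H4c8 (0.53 ± 0.32) were not called.

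H4c9 went the other way. It had 5.68, 4.27 and 4.30 CPM in the controls, with replicate 1 the highest, and 1.65, 1.54 and 1.62 CPM in MAOA-KO. The fall was 2.97-fold (-1.57 ± 0.16, adjusted p = 1.54e-09, edgeR). Over all 35 cluster rows, members included, 14 were tested, of which 9 rose, 2 fell and 3 were not called. Of the 9 that rose, 7 have an annotated transcript that runs over 100 bases past the stem-loop and 1, H2bc4, one without it. Among all 14 tested cluster rows 10 run over 100 bases past the stem-loop, so few other tested rows are left to compare with. Being tested also went with the annotated length. Of the 18 rows that run over 100 bases past the stem-loop 10 were tested, and of the 11 that end within 100 bases 2 were. Both genes that fell, H1f3 and H4c9, also run over 100 bases past it. A row passes the filter on low counts where either group is high enough. Of the 9 that rose, 4 (H2ac6, H3c15, H3c4 and Hist1h4n) had a control library under 10 counts and more counts in MAOA-KO, so their calls are no support for a rise of the cluster. Of the 21 cluster rows not tested, the controls lay above MAOA-KO without overlap in 7, H1f5, H2bc15 and H3c3 among them, MAOA-KO lay above in 3, and 11 overlapped. Over all tested genes these shares were 37.5% and 37.7%, and none was made over other untested genes. At so few counts, these numbers show no direction. Because of the filter, the count of rises among tested rows is no measure of the cluster as a whole. The untested rows had too few counts for a call: together with Macroh2a2 they had 0 to 14 counts per library.

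**Figure D4:**
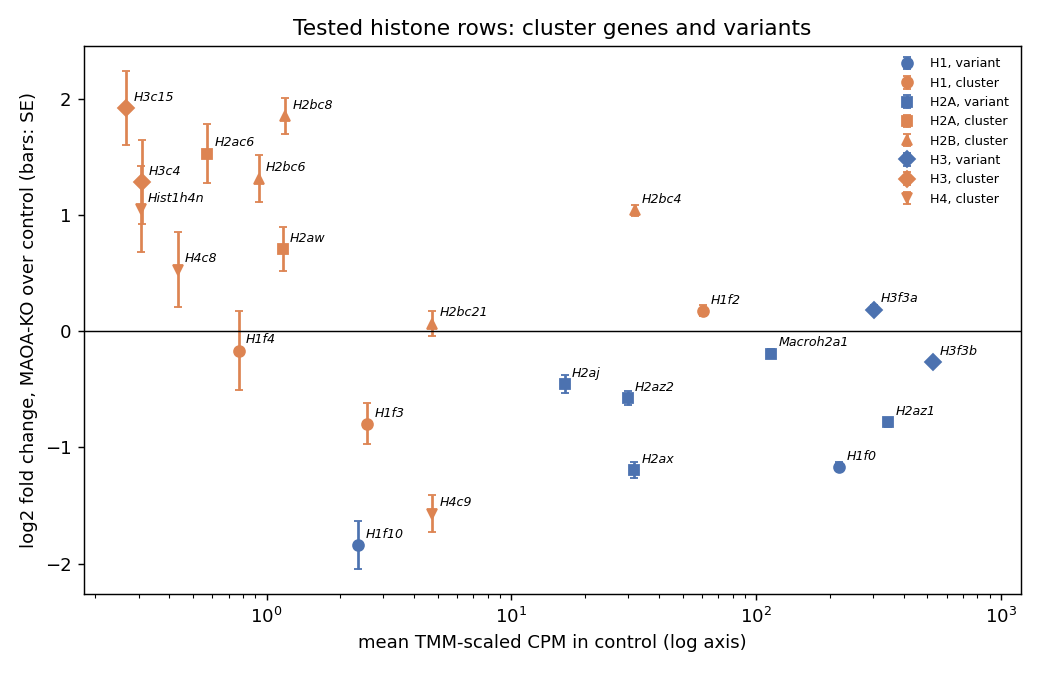
Log2 fold change (with SE) of each tested histone row against its mean CPM in the controls (log axis), with cluster genes in orange, variants in blue and marker shapes for histone classes. Most tested cluster rows lie above 0, H2bc4 at 1.04 and H2bc8 at 1.85, whereas all variants except H3f3a lie below 0.

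Sums over the rows of a class depend less on how reads were split among its copies. They do not repair reads that were dropped, counted more than once or shared with another class, as may be so for H1f4 and H2bc6. The 8 H2B rows summed to 38.4, 40.2 and 40.7 CPM in the controls and 79.8, 75.3 and 78.3 CPM in MAOA-KO. The 14 H2A rows, mostly H2az1, summed to 540.8, 550.6 and 534.7 CPM against 361.4, 346.7 and 349.6 CPM. The H2B sum was thus higher and the H2A sum lower in MAOA-KO, while the cluster part of H2A alone was higher, at 4.73 ± 0.195 CPM against 2.66 ± 0.0531 CPM in control (SD over 3 libraries each). The 4 cluster H3 rows summed to 0.871 ± 0.110 CPM in control and 1.98 ± 0.210 CPM in MAOA-KO, from 19 to 23 and 34 to 60 counts per library. H3c15 went from 0.268 to 1.01 CPM and H3c4 from 0.309 to 0.743 CPM, rows whose calls were set aside above. H3c2 went from 0.0705 to 0.214 CPM and H3c3 from 0.225 down to 0.0153 CPM. The cluster H2A sum likewise holds H2ac6, at 0.571 and 1.66 CPM, and H2aw, at 1.17 and 1.91 CPM. The 11 H4 rows summed to 7.55, 6.71 and 6.27 CPM against 4.49, 3.87 and 4.59 CPM, and H4c9 made up most of the control sum. With scaling to library totals only, the log2 ratio of the summed H3 level turned from -0.08 to 0.0043. No test was made on these sums.

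Levels of different genes can be compared per length, in deposited FPKM. The order depends on the length behind each FPKM value, which is only 685 bases for Hmgb1 and 1681 for Hmga1. In the controls Hmgb1 stood highest among the members at 394.5 ± 17.3 (mean ± SD, n = 3), followed by Hmga1 at 328.9 ± 20.8, H3f3b at 202.8 ± 4.40, Hmgn1 at 186.1 ± 2.33 and Lmna at 146.8 ± 8.26. H3f3a, H1f0, Hmgn2 and Hmga2 came next at 99.8 to 103.1 FPKM and the first 3 of these did not differ beyond their SDs. In MAOA-KO Hmgb1 stayed highest at 354.7 ± 8.89, and Hmgn1 at 184.4 ± 3.42 and H3f3b at 179.3 ± 2.18 stood above Hmga1 at 157.4 ± 12.2. H3.3 genes held 99.7% of the summed H3 FPKM in the controls and 99.3% in MAOA-KO. The labels' protocol speaks of small RNA enrichment and names no poly(A) selection, while 97.8% to 98.3% of counts fell on protein-coding genes. How far the library method lowers mRNAs without a poly(A) tail was not tested, so these shares describe the libraries and not the protein pool.

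Of 21 genes listed for histone mRNA processing and transcription 12 fell, 6 rose and 3 were not called. Over all tested genes 36.9% were called lower and 37.0% higher. The list also holds Ubn1, which encodes a subunit of a histone chaperone complex and is among the 6 that rose. The median of the 21 genes was -0.15 on the log2 scale. Slbp, which binds the histone stem-loop, rose by 0.14 ± 0.05 on that scale (adjusted p = 0.0118, edgeR), and this call was lost without control replicate 1 (adjusted p = 0.0567) or MAOA-KO replicate 3 (adjusted p = 0.0929). Npat, the coactivator of cluster histone genes, rose by 0.29 ± 0.05 (adjusted p = 3.20e-06) and the cap-binding subunit Ncbp2 by 0.53 ± 0.05. Cpsf3, the endonuclease that cuts histone mRNA, fell by 0.56 ± 0.04 and Nfyb, a subunit of NF-Y, by 0.49 ± 0.06.

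Histone chaperones and deposition factors fell in 29 of 35 genes, rose in 2 and were not called in 4. Over all tested genes 36.9% were called lower and 37.0% higher. The median of the chaperone list was -0.47 on the log2 scale. The list also holds Cenpa, the centromeric H3 variant, which fell from 62.6 ± 2.22 to 6.98 ± 0.360 CPM (SD over 3 libraries each; adjusted p = 2.09e-23 in edgeR). Its log2 fold change was -3.16 ± 0.06, against -1.94 in Hmgn5, the lowest among the members. Asf1b, the chaperone of newly made H3 and H4, had -1.77 ± 0.10, and Oip5, a centromere loading factor, -1.92 ± 0.11. Of 22 replication and proliferation genes 21 fell and 1 was not called, with a median of -1.09. Ccnb1, Rrm2 and Ccna2 fell by 2.82 ± 0.06, 2.80 ± 0.06 and 2.75 ± 0.06 on the log2 scale. Whether the falls of Hmgb2, Hmgn2, Lmnb1, H2ax and the like follow the share of dividing cells was not tested.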

How the data were processed

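The authors deposited 1 table of read counts and FPKM per gene with GRCm38.p6 positions, per the file headers; the submitters' processing notes name mm10. For the aligner, counter and strand setting no source used here gives a name. Deposited FPKM values equal the counts divided by gene length and the library total, and no row totals under 10 counts. The deposited p-values, their −log10 values and log2 fold changes, made by the authors with a test the headers do not name, were not used. Counts were tested with edgeR 4.0.16 (R 4.3.3; filterByExpr, TMM scaling, robust quasi-likelihood fit, Benjamini-Hochberg adjustment over 13243 genes, threshold 0.05) without a replicate block; standard errors are the log2 fold change over the root of F. The code was tested on simulated data, where 52% of 1.2-fold, 92% of 1.5-fold and 100% of 2-fold changes were recovered. Of the calls made there 7.03% were false, above the threshold of 0.05. CPM is TMM-scaled. The members and gene lists were chosen with earlier results of these data known. All members are described. Of each partner list the 3 largest called changes at 5 CPM or more are named, plus Slbp, Npat, Asf1b, Cenpa, Emd and Tmpo; cluster histone rows under 5 CPM outside the members were named after their values were seen. Same-numbered libraries deviated together over genes of at least 10 CPM (correlations 0.367, 0.269 and 0.255) but hardly over all tested genes (0.0880, 0.0576 and 0.0346). Differently numbered pairs ran from -0.484 to 0.247 over genes of at least 10 CPM, the highest being control 3 with MAOA-KO 2. No label says what a number shares. Alternatives were scaling, filters, omission of each library, replicate block, length correction, thinning and DESeq2 1.42.0.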

Additional observations from a re-analysis of the deposited data

How the results depend on the processing

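Repeats were made for 53 genes: the tested members, the tested rows under newer symbols and the partner genes named by the rule above. Matr3, Tor1aip2 and Ubn1 are not among the 53. A repeat in which a gene was filtered out or had no adjusted p was not counted. Over 15 alternatives, 775 of the 790 counted repeats kept their direction and their side of the threshold. The 22 tested members gave 328 of these repeats, of which 11 lost the call and 2 turned, both in H1f4 (0.32 without control replicate 2 and 0.08 without MAOA-KO replicate 3; from -0.52 to 0.32 over the libraries left out). Calls lost with a library left out or with library totals only stand beside Hmgn1, Hmgn3, Lmnb2, Hist1h4n and Slbp. Hmgn3 was also lost with length correction (adjusted p = 0.0783) and in DESeq2 (adjusted p = 0.0582). The number of called members ran from 20 to 22 when 1 library was left out. With the replicate block, 10205 genes were called over the whole table, and the members stayed at 21 called, 3 higher and 18 lower. The block changed no call among the 53 genes. Choosing members by GENCODE M21 symbol, an alternative chosen after seeing the data, gave 34 called members, 10 higher and 24 lower. The 2 chaperone genes called higher became 1 in DESeq2 and with libraries thinned to equal depth, and 1 to 2 with a library left out. With library totals only, the log2 ratios of the summed levels were -0.67 for H1, -0.53 for H2A, 1.05 for H2B and 0.0043 for H3, against -0.76, -0.62, 0.97 and -0.08; the median of all genes moved by 0.0864. Depth limits the 22 untested histone rows, with 0 to 14 counts per library.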
